A study of Mus musculus with 6 samples.

Results

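The 8 genes Cbx2, Cbx6, Cbx7, Cbx8, Phc1, Phc2, Phc3 and Scmh1 encode reader and scaffold subunits of canonical Polycomb repressive complex 1 (PRC1). Their open chromatin was followed in an ATAC-seq study of lineage-negative bone marrow cells, the fraction that remains when mature blood cells are removed. In ATAC-seq the Tn5 transposase inserts sequencing adapters into accessible DNA, so reads pile up in peaks over open regions. A peak was taken for a gene where the table of deposited peaks names that gene's transcription start site as the nearest one. This gave 73 of 109859 peaks, and none was removed by the filter on low counts. Libraries came from 3 wildtype mice and 3 Mel18 knock out mice, in which Mel18 had been removed conditionally in the hematopoietic system. The sources used here give no age, sex, strain or driver of the deletion. Library numbers run within each genotype and tie no library to a given mouse. The series asks whether loss of Mel18 alters chromatin accessibility in hematopoietic stem and progenitor cells.

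Canonical PRC1 is built on a Ring1 or Rnf2 ubiquitin ligase bound to Mel18 (gene Pcgf2) or its paralog Bmi1. A Cbx protein docks this core on nucleosomes that carry the trimethyl mark placed by PRC2, and a polyhomeotic (Phc) protein links complexes together through its SAM domain. In mouse blood stem cells, forced Cbx7 favours self-renewal and forced Cbx8 favours differentiation. The 8 genes studied here therefore encode partners of the deleted protein.

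No peak of the 8 genes passed the test between genotypes, and the clearest differences lay at Phc2. Phc2 encodes a polyhomeotic scaffold and has 3 annotated start sites, here called upstream, intron and downstream. In CPM, which scales reads to a common library size, the peak at the intron start site was higher in every knockout library than in any wildtype library, and the peak at the downstream start site was lower. Neither difference passed after adjustment over all peaks, and the upstream start site overlapped between genotypes. Of all peaks within 1 kb of a start site, 3.63% lay higher and 23.6% lower in knockout without overlap. The sequences before these start sites are shown with that of Cbx8, the most open promoter of the set, because they differ in base composition.

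Each window below covers the 250 bases before an annotated start (RefSeq, GRCm38.p6, which is mm10), written 5′ to 3′ in the direction of the gene. The Phc2 windows are chr4:128654452-128654701, chr4:128688488-128688737 and chr4:128727321-128727570 on the plus strand, and the Cbx8 window is chr11:119040914-119041163 on the minus strand. Capitals mark matches, on either strand, to CCAAT (the NF-Y box), GGGCGG (the Sp1 box), CCGGAAG (an ETS core), CACGTG (the E-box) or TGACGTCA (the CRE).
Phc2 upstream: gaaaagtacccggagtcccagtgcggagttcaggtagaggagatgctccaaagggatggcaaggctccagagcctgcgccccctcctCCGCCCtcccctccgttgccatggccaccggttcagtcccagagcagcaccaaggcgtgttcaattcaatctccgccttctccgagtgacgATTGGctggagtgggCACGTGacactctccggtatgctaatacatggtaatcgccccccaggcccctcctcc
Phc2 intron: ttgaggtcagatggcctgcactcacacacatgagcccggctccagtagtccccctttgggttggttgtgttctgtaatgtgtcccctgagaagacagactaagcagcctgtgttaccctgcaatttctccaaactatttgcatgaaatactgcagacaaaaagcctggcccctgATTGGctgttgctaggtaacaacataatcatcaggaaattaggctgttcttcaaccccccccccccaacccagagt
Phc2 downstream: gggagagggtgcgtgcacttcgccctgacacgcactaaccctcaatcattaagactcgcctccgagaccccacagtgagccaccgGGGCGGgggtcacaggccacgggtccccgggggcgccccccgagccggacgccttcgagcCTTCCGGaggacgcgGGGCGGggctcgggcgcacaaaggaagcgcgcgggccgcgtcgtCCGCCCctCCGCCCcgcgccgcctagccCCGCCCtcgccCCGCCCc
Cbx8: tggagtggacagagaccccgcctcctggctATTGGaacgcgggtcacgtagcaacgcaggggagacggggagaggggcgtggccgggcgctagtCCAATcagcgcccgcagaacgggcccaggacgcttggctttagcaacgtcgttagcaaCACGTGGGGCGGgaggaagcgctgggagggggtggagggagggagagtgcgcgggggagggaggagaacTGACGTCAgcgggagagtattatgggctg
The Phc2 downstream window held 34 CpG dinucleotides, the upstream window 13 and the intron window 1, against a median of 6 over 32851 windows of all genes. GC content was 76% downstream, 61.2% upstream and 50% in the intron window, against a median of 52.4%. GGGCGG occurred 6 times before the downstream start and once before the upstream start, and it was not found in the intron window; 32.7% of all windows hold it. CCAAT occurred once before the upstream and once before the intron start, and 33.8% of all windows hold it. The ETS core was found before the downstream start, as in 6.91% of all windows, and the E-box before the upstream start, as in 6.02%. The Cbx8 window held 22 CpG dinucleotides, 2 CCAAT boxes and a CRE, which 1.55% of all windows hold, and in it an E-box abuts a GGGCGG box without sharing a base.

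Windows were matched for 7 of the 8 genes, 10 windows in all. The others ranged from 45 CpG dinucleotides at the Scmh1 start on chromosome 4 at 120405348 to 0 at its second annotated start at 120453244. GGGCGG was found in 7 of the 10, CCAAT in 4 and CACGTG in 4. The NRF1 motif was found in the Phc3 window, as in 0.782% of all windows. The GATA site AGATAA was found in 1 window, against 9.99% of all windows. The Runx site TGTGGT was found in 0, against 14%. A match is a description of letters and not a bound site.

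Before the peaks are compared, the libraries need a description. Peak reads ran from 12000808 to 16709921 a library, and the 73 peaks held 0.0435% to 0.0538% of them. Wildtype library 3 stood apart, with rank correlations across peaks of 0.862 and 0.857 with the other wildtype libraries, which correlated at 0.931 with each other. Values without it are given below for the strongest promoter peak of every gene and for some other peaks, which are not all of those it moves most. The 7 stem and progenitor marker genes Kit, Cd34, Flt3, Meis1, Hlf, Mecom and Gata2 all had peaks, with summed levels of 505.3 to 549.8 CPM (reads scaled to a common library size) in wildtype and 524.6 to 569.1 CPM in knockout. These sums overlapped. Averaged as log2 deviations from the mean of all libraries, the same markers did not overlap, at -0.1 to -0.07 in wildtype and 0.04 to 0.18 in knockout. Markers of other cells were also open. The 8 T and NK genes summed to 169.1 to 229.5 CPM in wildtype and 137.1 to 155.8 CPM in knockout. The 4 B cell genes summed to 34.1 to 44.7 and 27.2 to 33 CPM, so the sums of these lists did not overlap between genotypes. As mean log2 deviations the T and NK genes overlapped, at -0.16 in wildtype library 2 and -0.07 in knockout library 2. The B cell genes did not. The 4 of 5 erythroid genes with a peak (none is listed for Hbb-bt) gave 155.2, 170.9 and 262.7 CPM in wildtype libraries 1, 2 and 3 and 213.6, 176.2 and 161.7 CPM in knockout libraries 1, 2 and 3. The 5 of 6 myeloid genes with a peak (none for Ly6g) gave 155.2 CPM in wildtype library 3 and 230.1 to 260.4 CPM elsewhere. Megakaryocyte genes gave 79.8 to 111.3 CPM and overlapped. In bulk libraries, fewer cells of a type and less open chromatin per cell cannot be told apart. The part of these shifts in the results below was not tested, apart from the values given without wildtype library 3.

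The Cbx genes, whose chromodomain proteins read the PRC2 mark, lie in pairs. Cbx2 and Cbx8 are 5.0 kb apart on chromosome 11, and Cbx6 and Cbx7 are 81.5 kb apart on chromosome 15. The deleted gene Pcgf2 is on chromosome 11 as well, 21.33 Mb from Cbx8. Cbx2 and Cbx6 had 6 peaks each and Cbx7 and Cbx8 had 7 each.

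Levels of the strongest promoter peaks, within 1 kb of a start site, were compared per kb of peak. Cbx8 was highest at 155 CPM per kb, above the strongest promoter peaks of 88.8% of 13008 genes. Phc2 followed at 76 (above 61.9%), then Cbx7 at 46.3, Phc1 at 42.7, Phc3 at 42.6, Cbx6 at 25.2, Cbx2 at 24.4 and Scmh1 at 18.4 CPM per kb, against a median over genes of 56.7. Cbx8 lay above every other member in all 6 libraries, from 136 to 180.7 CPM per kb. Phc2, at 64.1 to 97.3, lay above Cbx7, at 38.4 to 58, in every library. Cbx7, Phc1 and Phc3 overlapped one another, as did Cbx6 and Cbx2. Scmh1, at 14.2 to 24.7, overlapped Cbx2 and Cbx6 in range but lay below both in every library.

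The Cbx8 promoter peak (chromosome 11, 119040832 to 119041292, over the start site, 5′ UTR and first exon) held 78.9, 83.3 and 62.7 CPM in wildtype libraries 1, 2 and 3. It held 67.9, 71.5 and 64.6 CPM in knockout libraries 1, 2 and 3. Wildtype library 3 was the lowest of all, so the groups overlapped, with a log2 fold change (knockout minus wildtype) of -0.14 ± 0.106 (SE; adjusted p = 0.766 by edgeR's quasi-likelihood test, as for every adjusted p below unless another tool is named). Without wildtype library 3 it was -0.25 (adjusted p = 0.12), and it turned to 0.11 with trended normalization, which takes out shifts tied to how strong a peak is.

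Smaller peaks flank that promoter. One in the Cbx8 intron, 643 bp past the start (119040200 to 119040340), held 3.01, 5.73 and 2.61 CPM in wildtype and 4.81, 5.54 and 5.21 CPM in knockout libraries. Wildtype library 2 was the highest of all, so the groups overlapped (log2 fold change 0.46 ± 0.308, SE; adjusted p = 0.73; 0.25 without wildtype library 3). Its neighbour at 205 bp did not overlap, with 3.76 to 4.1 CPM in wildtype libraries against 3.19 to 3.63 CPM in the knockout ones (adjusted p = 0.873). A peak 6564 bp past the start also lay without overlap, at 9.24 to 11.6 CPM in wildtype and 8 to 8.78 CPM in knockout (adjusted p = 0.766). The strongest Cbx8 peak away from the promoter, 12530 bp upstream, averaged 16 ± 1.98 CPM over wildtype and 14.3 ± 1.07 CPM over knockout libraries (SD, n = 3 per genotype; adjusted p = 0.861).

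Cbx2, the neighbour of Cbx8, was less open. Its start site peak (119022849 to 119023108) held 5.49, 5.56 and 9.47 CPM in wildtype and 5.16, 6 and 6.3 CPM in knockout libraries. Apart from wildtype library 3, all lay within 5.16 to 6.3. The log2 fold change was -0.24 ± 0.266 (SE; adjusted p = 0.859), and 0.08 without that library. A peak 16943 bp upstream was of similar level, at 5.79 ± 0.853 CPM over wildtype and 6.16 ± 0.751 CPM over knockout libraries (SD, n = 3 per genotype; adjusted p = 0.948). Wildtype library 3 was the highest library for 4 of the 6 Cbx2 peaks. The peak with the smallest p, in the intron 1483 bp past the start, held 1.4 ± 0.573 and 1.83 ± 0.483 CPM over wildtype and knockout (SD, n = 3 per genotype; adjusted p = 0.85).

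At Cbx7, wildtype library 3 was the highest library for 5 of 7 peaks. The strongest peak lies in the intron, 4763 bp past the start (chromosome 15, 79927659 to 79928107), and exceeds the promoter. It held 19.6, 20.6 and 38 CPM in wildtype and 22.5, 21.2 and 17.7 CPM in knockout libraries, so 5 of the 6 lay within 17.7 to 22.5. The difference was -0.35 ± 0.241 on the log2 scale (SE; adjusted p = 0.743), and 0.03 without wildtype library 3. The promoter peak (79932639 to 79932913) held 14.3, 11.7 and 16 CPM in wildtype and 10.6, 12.9 and 11 CPM in knockout, which differ by -0.29 ± 0.201 on the log2 scale (SE; adjusted p = 0.742), or by -0.18 without wildtype library 3.

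All 6 Cbx6 peaks also lie in Npcd, a gene that overlaps Cbx6. The peak 11845 bp past the start, in an Npcd intron, held 2.92, 3.85 and 11.8 CPM in wildtype against 6.37, 5.34 and 4.25 CPM in knockout libraries. Its log2 fold change was -0.23 ± 0.456 (SE; adjusted p = 0.934), and 0.66 without wildtype library 3 (adjusted p = 0.258). The 2 peaks over the Cbx6 3′ UTR also lie in that Npcd intron, and 1 of them held 1, 11 and 53 reads in the wildtype libraries and 8, 18 and 17 in the knockout libraries. The log2 fold change of that peak was -0.90 ± 0.83 (SE; adjusted p = 0.821), and 0.79 without wildtype library 3 (adjusted p = 0.661). The promoter peak (79834161 to 79834515) averaged 9.34 ± 1.87 CPM over wildtype and 8.55 ± 0.469 CPM over knockout libraries (SD, n = 3 per genotype; adjusted p = 0.918), a log2 difference of -0.13, or 0.06 without wildtype library 3.

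**Figure D1:**
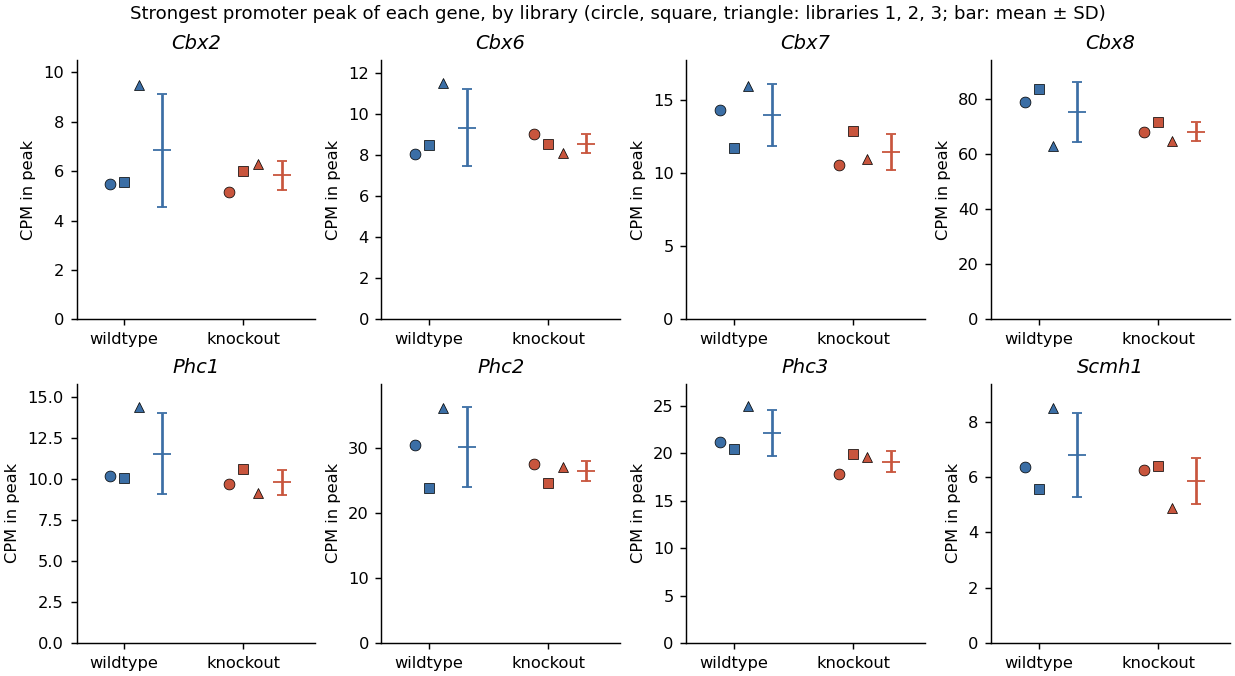
Level (CPM, vertical axis from 0) of the strongest promoter peak of each of the 8 genes in 3 wildtype (blue) and 3 knockout (red) libraries, with mean ± SD beside the points. Wildtype library 3 (triangle) is the highest library in 7 panels and the lowest at Cbx8; the groups are apart only at Phc3, where wildtype spans 20.4 to 25 CPM and knockout 17.9 to 19.9 CPM.

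The Phc genes and Scmh1 encode the SAM domain subunits, and among them Phc2 had the most peaks, 21 of the 73. Phc1 had 13, Scmh1 7 and Phc3 6. Phc2 spans chromosome 4 from 128654655 to 128752881.

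The Phc2 intron start site peak (128688670 to 128688876) was among the weaker peaks. It held 22, 12 and 28 reads in wildtype libraries 1, 2 and 3 and 69, 39 and 36 reads in knockout libraries 1, 2 and 3. These are 1.95, 1.03 and 2.09 CPM against 4, 2.57 and 2.31 CPM, so every knockout library lay above every wildtype library, by a small margin between wildtype library 3 and knockout library 3. The log2 fold change was 0.81 ± 0.363 (SE; unadjusted p = 0.0458, adjusted p = 0.536, edgeR quasi-likelihood test). It was 0.70 with trended normalization (unadjusted p = 0.0763, same test), and 1.01 without wildtype library 3 (adjusted p = 0.194). A second weak peak 1197 bp further on was also higher in each knockout library, at 0.927, 1.52 and 1.16 CPM against 0.708, 0.77 and 0.522 CPM in wildtype (log2 fold change 0.84 ± 0.424, SE; adjusted p = 0.602).

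The downstream start site peak (128727420 to 128727691) had the smallest p of the 73. It held 15.8, 13.4 and 15 CPM in wildtype and 9.62, 8.91 and 10.3 CPM in knockout libraries, a gap between the genotypes. Of all promoter peaks, 23.6% were lower in knockout without overlap, and 19.1% were lower at an unadjusted p under 0.05 (edgeR quasi-likelihood test). The raw reads of the downstream peak overlapped, at 178, 157 and 201 in wildtype and 166, 135 and 160 in knockout. The gap is therefore one of scaled values. The log2 fold change was -0.62 ± 0.19 (SE; unadjusted p = 0.00692, adjusted p = 0.283, edgeR quasi-likelihood test), and -0.60 without wildtype library 3 (adjusted p = 0.0678). With trended normalization it was -0.61 and with library sizes alone -0.49. The flanking peaks at -283 and 334 bp lay at -0.47 ± 0.338 and -0.49 ± 0.244 on the same scale (SE; adjusted p = 0.751 and 0.599), and the second of these did not overlap between genotypes.

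The upstream start site peak (128654493 to 128654863), the strongest of the gene, held 30.4, 23.8 and 36.1 CPM in wildtype and 27.5, 24.6 and 27 CPM in knockout libraries. All 3 knockout libraries lay inside the wildtype range (log2 fold change -0.19 ± 0.158, SE; adjusted p = 0.789). This value rests on single libraries, since it was -0.03 without wildtype library 3 and -0.36 without wildtype library 2 (adjusted p = 0.949 and 0.306). The 3 start sites of one gene thus gave differences of -0.19, 0.81 and -0.62 in the order of the gene.

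Comparing start sites within a library removes any scaling between libraries. For every 100 reads in the downstream start site peak, the intron start site peak held 12.4, 7.64 and 13.9 reads in wildtype and 41.6, 28.9 and 22.5 reads in knockout libraries. The mean log2 ratio was -3.19 ± 0.458 over wildtype and -1.74 ± 0.445 over knockout libraries (SD, n = 3 per genotype), a difference of 1.45 with no overlap (p = 0.1, two-sided exact permutation test, the least that 3 against 3 libraries allow). The difference was 1.24 with trended levels. This pair was chosen after its values were seen. In CPM the intron peak was already higher, and the downstream peak lower, in every knockout library. Their ratio therefore could not overlap, and its p was fixed before the test, so neither adds to the values of the 2 peaks. Among 448 pairs of peaks over different start sites of one gene, 16.1% had groups that did not overlap, and 0.446% (2 pairs, this one included) had no overlap and a difference at least as large. The CPM sums of the T and NK and of the B cell markers were lower in every knockout library as well. The mean log2 deviations of the stem and progenitor markers were higher. The part of these markers in this ratio was not tested.

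**Figure D2:**
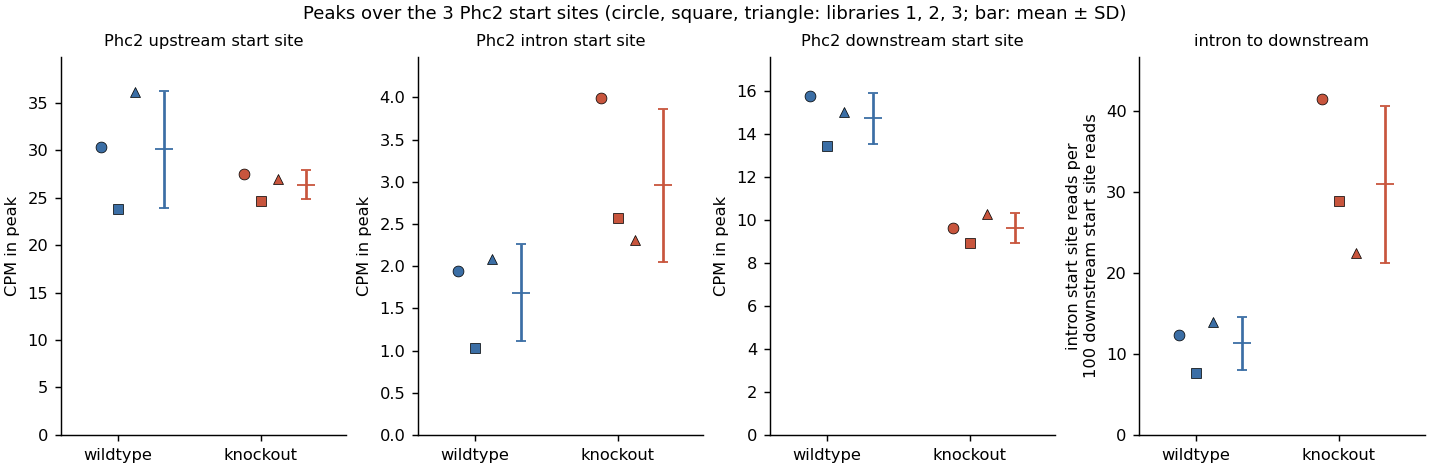
CPM (vertical axes from 0) in the peaks over the upstream, intron and downstream start sites of Phc2, and intron start site reads per 100 downstream start site reads, in 3 wildtype (blue) and 3 knockout (red) libraries with mean ± SD. The ratio spans 7.64 to 13.9 in wildtype and 22.5 to 41.6 in knockout.

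Larger values at Phc2 were not confined to its start sites. A peak 2350 bp past the downstream start lay at 0.83 on the log2 scale (adjusted p = 0.572). It held 1.33, 1.45 and 0.969 CPM in wildtype and 1.28, 2.84 and 2.57 CPM in knockout libraries, which overlap. Peaks 7850 bp past the downstream start and 9972 bp past the intron start lay at -0.53 and 0.49, also with overlap. Most of the remaining Phc2 peaks differed less. The strongest one away from a start site, in an intron 16009 bp before the downstream start (128711425 to 128711699), averaged 21 ± 1.15 CPM over wildtype and 21.2 ± 2.29 CPM over knockout libraries (SD, n = 3 per genotype), which differ by 0.01 ± 0.154 on the log2 scale (SE; adjusted p = 0.992). An exonic and intronic peak 18037 bp before that start (128709414 to 128709654) depended on 1 library. It held 2.57, 2.31 and 8.2 CPM in wildtype and 10.8, 5.61 and 5.14 CPM in knockout libraries. Over all libraries the log2 fold change was 0.71 ± 0.478 (SE; adjusted p = 0.738). Without wildtype library 3 it was 1.57 (adjusted p = 0.00899, edgeR quasi-likelihood test), the only peak of the 73 past the threshold in any leave-one-out fit, at a setting where 0.29% of all peaks were called higher and 2.45% lower. With trended normalization added it was 1.52 (adjusted p = 0.0823). Wildtype library 3 and knockout library 1 were the highest at this peak, for the erythroid markers and for the megakaryocyte markers (111.3 and 97.5 CPM). The part of either cell type in this value was not tested. Without wildtype library 3 the erythroid sums were 155.2 and 170.9 CPM in wildtype and 161.7 to 213.6 CPM in knockout.

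**Figure D3:**
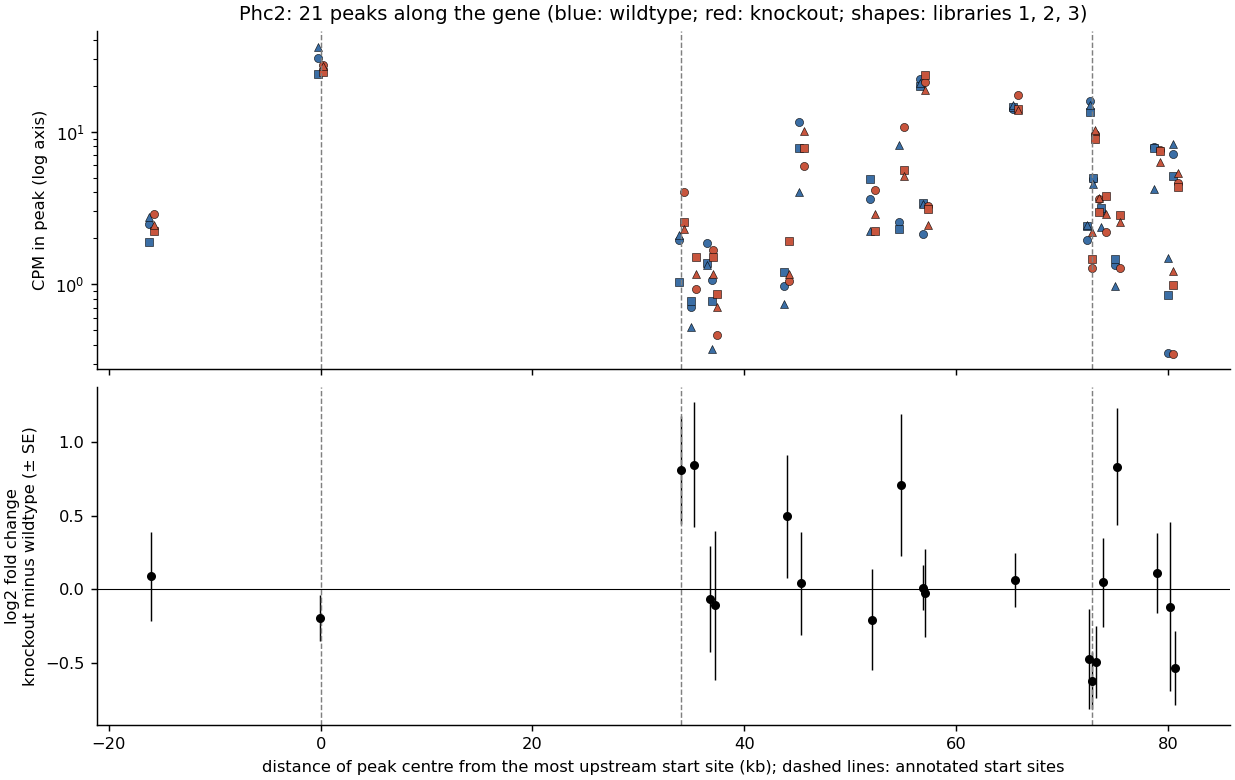
CPM of the 21 Phc2 peaks in each library (upper panel, log axis) and their log2 fold change ± SE (lower panel) against distance from the most upstream start site in kb, with dashed lines at the 3 annotated start sites. The intron start site lies at 0.81 and the downstream start site at -0.62, with both flanking promoter peaks of the latter below 0.

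Phc1, another polyhomeotic gene, had a compact promoter and a distant group of peaks. The strongest promoter peak (chromosome 6, 122339351 to 122339600) held 10.2, 10.1 and 14.4 CPM in wildtype and 9.68, 10.6 and 9.13 CPM in knockout libraries (log2 fold change -0.24 ± 0.216, SE; adjusted p = 0.815; -0.04 without wildtype library 3). All 4 promoter peaks had log2 fold changes between -0.27 and -0.14, and between -0.22 and 0.08 without that library. Between 50678 and 62201 bp upstream lay 6 peaks, and wildtype library 3 was the highest in each. The Phc1 peak with the highest mean CPM is among them, 54112 bp upstream (122394104 to 122394573), at 6.64, 9.15 and 30.5 CPM in wildtype and 25.4, 12.1 and 12.5 CPM in knockout libraries. The spread within each genotype exceeded the difference between them (log2 fold change 0.11 ± 0.508, SE; adjusted p = 0.977), and without wildtype library 3 the value was 1.09 (adjusted p = 0.218). Here too the libraries with the highest erythroid sums, 262.7 CPM in wildtype library 3 and 213.6 CPM in knockout library 1, were the highest. The same libraries had the highest megakaryocyte sums, and the part of either cell type was not tested. A weak peak 6328 bp past the start had the lowest value of the 73 peaks, -1.005 ± 0.485 (SE; unadjusted p = 0.0601, adjusted p = 0.579), on 7 to 31 reads a library. It ranged from -0.56 without wildtype library 1 to -1.41 without knockout library 3.

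With all libraries, 5 of 6 Phc3 peaks had positive log2 fold changes, a larger share than at any other member. This contrast depended in part on wildtype library 3, since without it every Cbx2 peak was positive too, at 0.01 to 0.69. Among all peaks away from promoters, 42.8% had values under 0 with all libraries. The Phc3 start site peak (chromosome 3, 30969095 to 30969579) was the exception at that gene, with 21.2, 20.4 and 25 CPM in wildtype and 17.9, 19.9 and 19.6 CPM in knockout libraries. The groups did not overlap, by a narrow margin (log2 fold change -0.22 ± 0.155, SE; adjusted p = 0.754; -0.12 without wildtype library 3). A weak intronic peak 52962 bp past the start (30916347 to 30916558) held 1.59, 1.97 and 1.19 CPM in wildtype and 2.49, 1.98 and 3.09 CPM in knockout, apart only narrowly, between library 2 of either genotype (log2 fold change 0.67 ± 0.339, SE; adjusted p = 0.603). The strongest peak beyond the promoter, 6169 bp upstream, held 5.38 ± 0.975 and 5.73 ± 0.549 CPM over wildtype and knockout (SD, n = 3 per genotype; adjusted p = 0.95).

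Scmh1, the homolog of the fly Sex comb on midleg protein, had the weakest promoter per kb. Its start site peak (chromosome 4, 120405135 to 120405478) held 6.38, 5.56 and 8.5 CPM in wildtype and 6.26, 6.4 and 4.89 CPM in knockout libraries (log2 fold change -0.22 ± 0.247, SE; adjusted p = 0.858; -0.02 without wildtype library 3). A peak 24067 bp upstream was slightly stronger in mean CPM, at 6.82, 4.11 and 7.16 in wildtype and 7.07, 7.65 and 7.2 in knockout (log2 fold change 0.28 ± 0.253, SE; adjusted p = 0.818). Both overlapped between genotypes.

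**Figure D4:**
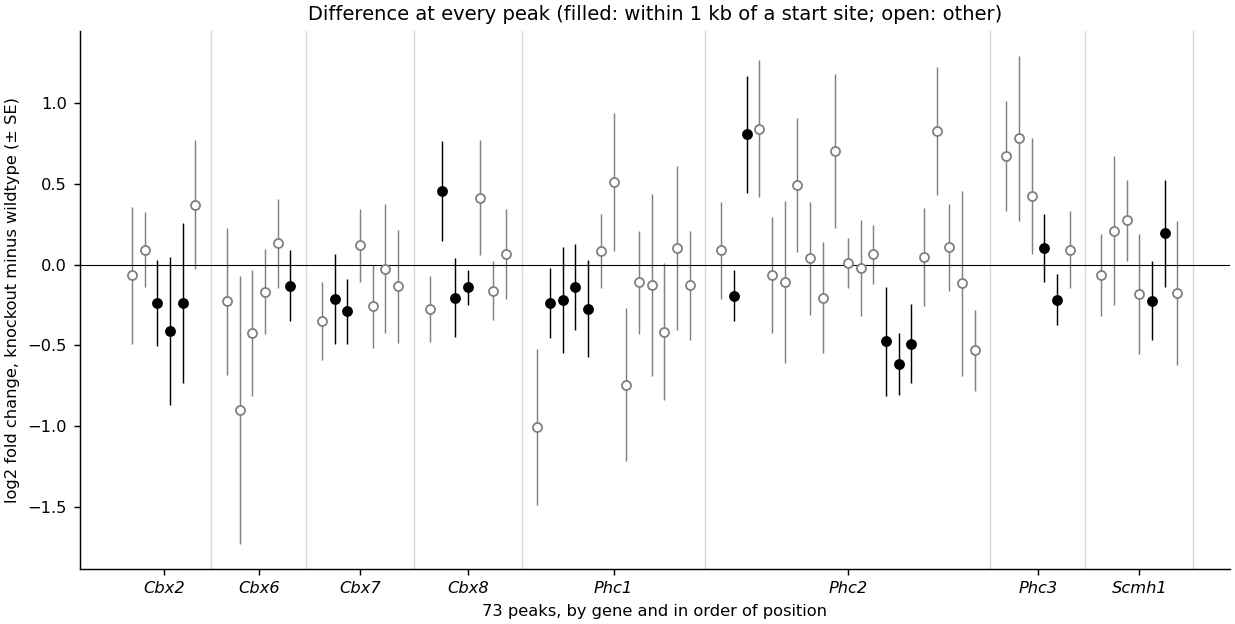
Log2 fold change, knockout minus wildtype, with SE for each of the 73 peaks in order of position within each gene; filled points lie within 1 kb of a start site and open points elsewhere. Of 22 filled points 18 lie below 0 (13 when fitted without wildtype library 3), and values range from -1.005 at Phc1 to 0.84 at Phc2.

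Over all 73 peaks, 0 passed an adjusted p of 0.05, as did 0% of the 109859 peaks (edgeR quasi-likelihood test). At an unadjusted p under 0.05, 1 peak was higher and 1 lower in knockout, 1.37% each, against 3.1% and 5.97% of all peaks. Groups did not overlap at 3 higher and 5 lower peaks, 4.11% and 6.85%, against 7.63% and 8.01% of all peaks. These shares are below the background. Values under 0 made up 44 of the 73 (60.3%, against 48.2% of all peaks). DESeq2 also called 0 of the 73, with an adjusted p for 1 of them, and at an unadjusted p under 0.05 it gave 0 higher and 1 lower. The authors' deposited table gives the Phc2 downstream start site peak a log2 fold change of -0.62 with p = 0.00729 and the intron one 0.81 with p = 0.035. The authors' adjusted p-values for these peaks are 0.41 and 0.57, so neither passes there. For the downstream peak these values equal those of edgeR's likelihood ratio test on the same counts, so they are not separate evidence.

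Promoter and other peaks leaned differently. Of the 22 promoter peaks 18 had a negative log2 fold change (81.8%, against 69.8% of all promoter peaks), and their median was -0.22 against -0.15. Without wildtype library 3, 13 of the 22 were negative (59.1%, against 60.4%), with a median of -0.04 against -0.08. Groups did not overlap at 4 lower and 1 higher promoter peaks (18.2% and 4.55%, against 23.6% and 3.63%). Of the 51 other peaks 26 were negative (51%, against 42.8%), with a median of -0.02 against 0.06, and without that library 17 were (33.3%, against 44.6%), with a median of 0.12 against 0.05. Groups did not overlap at 2 higher and 1 lower of these (3.92% and 1.96%, against 8.62% and 4.14%), and 0 had an unadjusted p under 0.05, against 3.6% higher and 2.7% lower among all such peaks. At an unadjusted p under 0.05, 1 of the 22 promoter peaks was lower (4.55%), against 19.1% of all promoter peaks, and 1 was higher, against 1.11%. Wildtype library 3 was the highest library at 13 of 22 promoter peaks (59.1%, against 41.5%) and at 16 of 51 others (31.4%, against 21.6%). That makes 29 of 73 (39.7%, against 25.6%), and without it 30 of the 73 peaks were negative in place of 44.

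Reads summed over all peaks of a gene were tested across 19013 genes. None of the 8 genes passed, as did 0% of all genes, and none had an unadjusted p under 0.05, against 11.1% of all genes. The smallest p belonged to Phc3, with 36.9, 42.5 and 41.7 CPM in wildtype and 41.7, 43.5 and 44.7 CPM in knockout (log2 fold change 0.10 ± 0.103, SE; adjusted p = 0.743). Cbx7 held 54.5, 49.1 and 80.2 CPM in wildtype and 53.7, 57.8 and 54.1 CPM in knockout (-0.15 ± 0.168, SE; adjusted p = 0.765). Scmh1 held 25.2, 19.5 and 24.5 CPM in wildtype and 25.1, 25 and 24 CPM in knockout (0.10 ± 0.138, SE; adjusted p = 0.828). The other 5 genes lay between -0.09 (Cbx6) and 0.03 (Cbx2). Values under 0 were found for 4 of the 8, against 48.6% of all genes, and the median of the 8 was -0.00 against 0.01 for all genes. At Phc2 the sums averaged 128.4 ± 6.42 and 130.5 ± 3.42 CPM over wildtype and knockout (SD, n = 3 per genotype), or 0.02 ± 0.0718 on the log2 scale (SE; adjusted p = 0.935), so the opposite values at its start sites did not appear in the sum.

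The share of a gene's reads that fell in its promoter peaks was highest at Phc3 and Cbx8 and lowest at Cbx7. Phc3 had 74.6% ± 7.12 over wildtype and 68.1% ± 2.33 over knockout libraries, Cbx8 70.4% ± 1.71 and 70.5% ± 0.227, and Cbx7 31.7% ± 5.41 and 30.5% ± 0.909 (SD, n = 3 per genotype). At Phc2 the share was 39.9, 37.2 and 43.9% in wildtype and 34.9, 32.6 and 36.7% in knockout libraries, without overlap (p = 0.1, two-sided exact permutation test, the least possible; adjusted over the 8 genes 0.8). The other 7 genes overlapped, with p from 0.2 to 1. How often this share lies without overlap over all genes was not computed. Among all peaks, values under 0 made up 69.8% of promoter peaks and 42.8% of other peaks, so a lower promoter share cannot be called particular to Phc2.

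**Figure D5:**
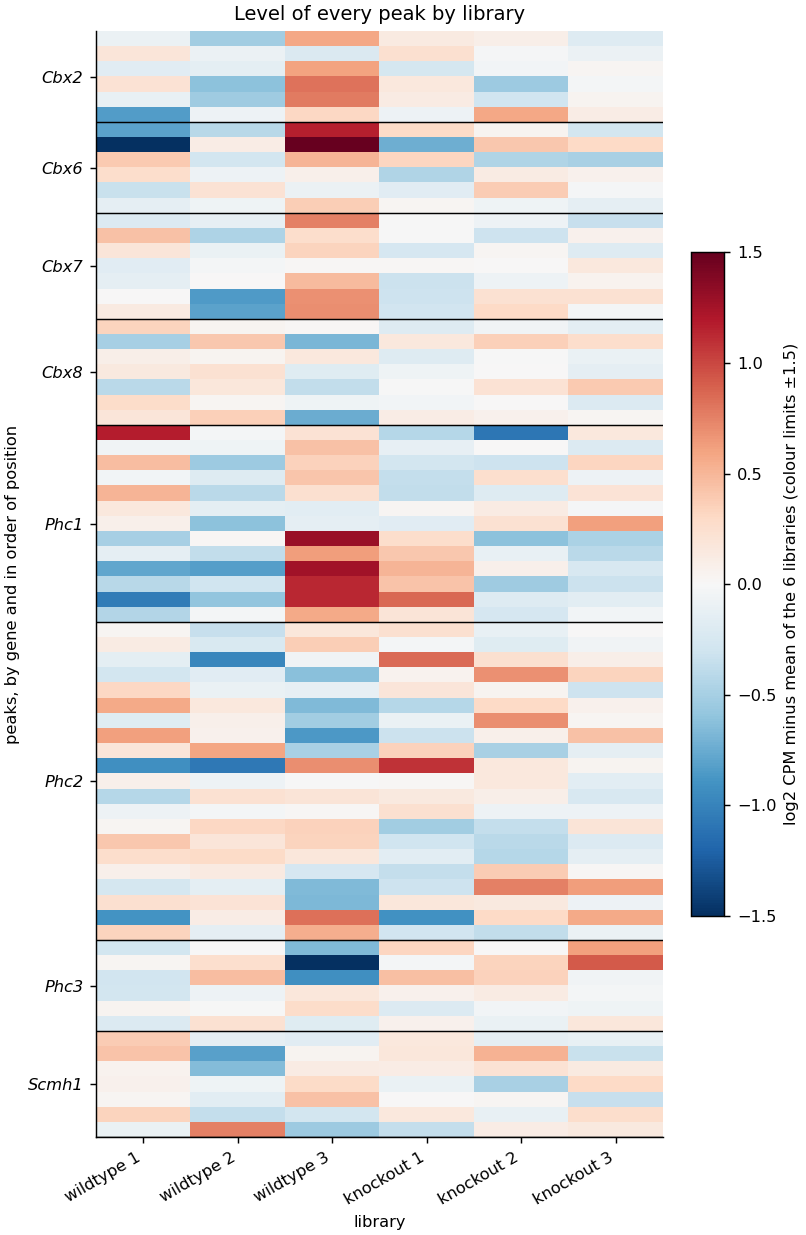
Log2 CPM of each of the 73 peaks (rows, by gene and position) in each library (columns), minus the mean of the 6 libraries; red is above and blue below the mean, with colours limited at ±1.5. Wildtype library 3 is red through most of Cbx2, Cbx6, Cbx7 and Phc1, with mean deviations of 0.48, 0.68, 0.46 and 0.57, and blue at Cbx8 and Phc3, at -0.27 and -0.47.

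The rest of the PRC1 family was read from the same fits together with related genes. Of the 37 genes listed, 5 (Yy1 among them) were related genes, of the class PhoRC and related MBT or SAM proteins. Peaks were found for 36 of the 37, 328 in all. None of these peaks passed, while an unadjusted p under 0.05 was found for 16 higher and 17 lower ones (4.88% and 5.18%, against 3.1% and 5.97% of all peaks), and the median log2 fold change was 0.08. The 21 variant complex genes had 11 higher and 10 lower of 208 peaks. The 8 catalytic and Pcgf genes had 2 higher and 2 lower of 36 peaks, with 0 peaks listed for Pcgf2 itself. The smallest p belonged to an intronic peak of Pcgf5, a paralog of Mel18 in variant complexes, on chromosome 19 from 36409457 to 36410003. It held 94.4, 82.3 and 85.5 CPM in wildtype and 64.6, 61.4 and 63 CPM in knockout libraries, or -0.47 ± 0.0823 on the log2 scale (SE; adjusted p = 0.0606), and -0.21 with trended normalization. Next were an intronic peak of Yy1, a DNA-binding zinc finger factor, at -0.48 ± 0.0992 (adjusted p = 0.0846), and the start site peak of Max, the partner of Mga in a variant complex, at -0.37 ± 0.0794 (SE; adjusted p = 0.101), which were -0.30 and -0.07 with trended normalization.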

How the data were processed

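ATAC-seq libraries from 3 wildtype and 3 knockout mice were grouped by the genotype in the labels, which give separate mice. Among builds and tools, the submitters' processing notes list mm10 and, without saying what each was used for, MACS2 2.1.1, Bowtie2 1.2.2, Trimmomatic 0.40, MultiQC 0.11.5, FastQC and Picard. The sources used here give no read counter, Tn5 shift, duplicate removal or peak filter, any of which can move the counts. Per the file headers, the deposited table holds raw read counts per peak and the authors' log2 fold change, p-value and adjusted p-value. The deposited table has 12 other per-library columns (log2 CPM and peak calls), left out here. Starts are printed counted from 1.

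Counts were tested with edgeR 4.0.16 (R 4.3.3; quasi-likelihood, robust, TMM, filterByExpr, which removed 0 peaks), Benjamini-Hochberg adjusted over all 109859 peaks or all 19013 genes, with a threshold of 0.05. The SE is the log2 fold change over the square root of F. CPM values use TMM library sizes. Trended normalization used loess offsets per library (span 0.3, prior count 2). Alternatives were DESeq2 1.42.0, limma-voom (limma 3.58.1), edgeR's likelihood ratio test, DESeq2 size factors, library sizes alone, a minimum mean of 1 CPM, no filter, a 3 kb promoter window and leaving out each library. The pipeline was tested on simulated data, which held no library that stood apart as wildtype library 3 does. No pair of libraries of one genotype was a duplicate (chi-square over its degrees of freedom, 2.26 to 9.46). Members, lists and tests were chosen with earlier results of these data known. Named for each gene were the strongest promoter peak, the strongest other peak and the peak with the smallest p; other peaks named in the text were chosen after their values were seen. One marker gene and the correlations between promoters are not reported here.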

Additional observations from a re-analysis of the deposited data

How the results depend on the processing

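No paired analysis was possible because the groups share no mouse number and the count columns are not tied to mice. The 73 member peaks and 8 gene sums were not called under any alternative with all 6 libraries. Over all peaks, calls higher and lower numbered 1 and 278 with limma-voom, 2 and 1 with the likelihood ratio test and 2 and 466 with DESeq2 size factors, against 0 and 0. Over genes they numbered 1 and 17 with DESeq2 and 4 and 7 with the likelihood ratio test. Leaving out 1 library gave 0 to 319 higher and 0 to 2694 lower peaks, 0 to 142 higher and 0 to 589 lower genes, and 0 to 1 higher member peaks. The highest of each came without wildtype library 3 (without wildtype library 2, 533 peaks were lower). Without wildtype library 3, trended normalization, a setting chosen after seeing the data, left 41 higher and 73 lower peaks and 65 higher and 64 lower genes. Member peaks at an unadjusted p under 0.05, 1 higher and 1 lower, became 0 higher with DESeq2 or its size factors, 2 and 2 with the likelihood ratio test, 4 higher with library sizes alone, 0 and 4 with trended normalization, 4 and 3 without wildtype library 3 and trended, and 0 to 5 and 1 to 4 on leaving out 1 library. Library sizes alone moved the median of all peaks from 0.02 to 0.14.

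Several small values turned sign, none of them called, and the cause was not tested. With DESeq2 and its size factors the Phc2 peak at -16009 bp went to -0.0054 and -0.0053. With limma-voom the Cbx6 peak at 11845 bp went to 0.0063. With library sizes alone the Cbx8 sum was 0.012. With trended normalization the Cbx8 promoter was 0.11 and the sums of Cbx2 and Cbx8 were -0.052 and 0.039. Without wildtype library 3 and trended, the peaks of Cbx2 at -16943 and -50 bp were -0.0043 and 0.054, of Cbx6 at 11845 and -5 bp 0.61 and 0.074, of Cbx7 at 4763 bp 0.16, and the promoters of Cbx8, Phc2 and Phc3 0.015, 0.13 and 0.0097, and the sums of Cbx6, Cbx7 and Phc1 0.16, 0.11 and 0.38. On leaving out 1 library, ranges that crossed 0 were -0.011 to 0.18 and -0.41 to 0.078 for those Cbx2 peaks, -0.61 to 0.66 and -0.26 to 0.055 for Cbx6, -0.56 to 0.033 for Cbx7, -0.33 to 1.09 for Phc1 at -54112 bp, -0.066 to 0.089 for Phc2 at -16009 bp and -0.014 to 0.22 for Phc3 at -6169 bp. For gene sums they were -0.079 to 0.21 (Cbx2), -0.24 to 0.21 (Cbx6), -0.29 to 0.086 (Cbx7), -0.14 to 0.062 (Cbx8), -0.24 to 0.34 (Phc1), -0.018 to 0.041 (Phc2) and -0.0077 to 0.17 (Scmh1). A 3 kb window gave 29 promoter peaks in place of 22, with a median of -0.19. Weak peaks of 1 or 2 CPM rest on few reads (12 to 69 a library at the Phc2 intron start site), which limits what a difference there can show.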

Other observations

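Genes of the HP1 class, Cbx1, Cbx3 and Cbx5, carry the same kind of chromodomain but read another histone mark and lie outside PRC1. Of their 7 peaks 0 were higher and 1 was lower (14.3%) at an unadjusted p under 0.05, against 3.1% and 5.97% of all peaks, none passed (smallest adjusted p = 0.43), and the median log2 fold change was 0.01.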
